A study of Mus musculus with 6 samples.

Results

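The Hox genes encode the homeodomain transcription factors that give cells their position along the head-to-tail axis. All 39 protein-coding Hox genes of the 4 mouse clusters were taken from a table of 45777 genes. They were taken by symbol (Hox, a cluster letter from a to d, and a paralog number). No member was picked by its level or its change, but the family was chosen with earlier results of these data known. The tissue was brown adipose tissue, the fat that burns fuel for heat. It came from wild-type male C57Bl6/J mice given ginsenoside Rb2, a steroid-like saponin of ginseng, or phosphate-buffered saline (PBS) into the peritoneum for 2 weeks, with RNA of 3 mice per group. The labels give neither the age of the mice nor the anatomical depot. Libraries are named by the numbers of the table's columns, which are 1, 3 and 4 for Rb2 and 1, 2 and 4 for PBS, and values of single libraries follow that order.

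Within each cluster the genes stand in the order in which they are used along the body. Low paralog numbers act in the hindbrain and neck, middle numbers in the neck and trunk, and high numbers in the lumbar region, tail, limb ends and genital tract. Genes with the same number in different clusters descend from 1 ancestral gene and often share functions. Adult connective and fat tissues keep much of the pattern of their embryonic origin. In mice Hoxc8 and Hoxc9 have been used as markers of white as against brown fat, and Zic1 and Lhx8 as markers of classical brown fat.

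The libraries held 83642183 to 92666780 counts, so that 3 counts, the limit that a count of 0 allows, came to between 0.0307 and 0.0370 CPM (counts scaled to a common library size and normalised by TMM). This limit covers counting error only. The 10 brown adipocyte markers made up 1.20 to 1.69% of counts in Rb2 libraries and 1.57 to 1.78% in PBS libraries. Ucp1, the uncoupling protein that defines the tissue, was at 2928, 4687 and 3406 CPM in Rb2 libraries, against 3790, 3388 and 4770 CPM in PBS libraries, and did not pass the test (adjusted p = 0.749, edgeR). Of the 10 markers, 1 passed in each direction: Elovl3, a fatty acid elongase of active brown fat, was lower (log2 fold change -1.74 ± 0.31, adjusted p = 0.0214), and Ppara, a regulator of fat oxidation, was higher (0.75 ± 0.19, adjusted p = 0.0369). Skeletal muscle transcripts varied most between libraries. Their 14 markers made up 0.00476, 0.0472 and 0.0337% of counts in Rb2 1, 3 and 4, against 0.241, 0.795 and 0.00716% in PBS 1, 2 and 4, and 8 of the 14 were at 0 in Rb2 1. Most of the sum in the lowest libraries was the marker Myl1, with 49.7 of 50.5 CPM in Rb2 1 and 59.9 of 67.8 CPM in PBS 4. The marker Acta1 ranged from 0.118 CPM in Rb2 1 to 1612 CPM in PBS 2. In bulk tissue, fewer cells of a type and less RNA per cell cannot be told apart.

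The positional pattern ended at paralog group 9, where levels were already low. Of the 39 genes, 13 had no count in any of the 6 libraries (33.3%, against 24.8% of the 21949 protein-coding genes of the table), 2 had a few counts, and 24 were abundant enough to test. The 13 were Hoxa10, Hoxa11, Hoxa13, Hoxb1, Hoxb13, Hoxc10, Hoxc11, Hoxc12, Hoxc13, Hoxd1, Hoxd11, Hoxd12 and Hoxd13. Paralog groups 10 to 13, which pattern the lumbosacral region, limb ends and urogenital tract, hold 12 genes, of which 11 had no count. The 12th was Hoxd10, a gene of lumbar motor neurons and limb, with 5 counts, all in PBS 2. Hoxb1 and Hoxd1, anterior genes of the hindbrain, were the other 2 genes without a count.

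The boundary lay between neighbouring genes in each cluster, with distances taken from RefSeq positions. In the Hoxa cluster, Hoxa9 had 262 counts over the 6 libraries and Hoxa10, 3.83 kb away, had 0. In the Hoxd cluster, Hoxd9 had 530 counts and Hoxd10, 2.66 kb away, had 5. In the Hoxc cluster the pattern ended 1 gene earlier: Hoxc8 had 2690 counts, and Hoxc9, 6.10 kb away, had 6, of which 2 were in Rb2 3 and 4 in PBS 1. Hoxb9 had 330 counts and Hoxb13, the only Hoxb gene beyond it, had 0 across a gap of 74.7 kb. The 2 to 5 counts in single libraries are at or near the limit that a count of 0 allows.

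**Figure D1:**
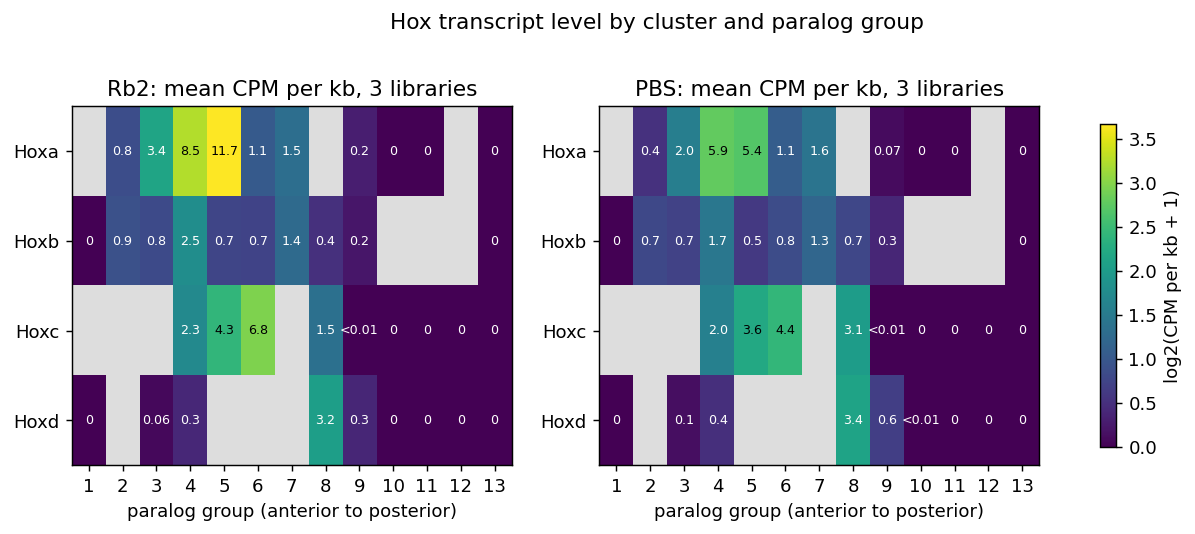
Mean level of the Hox genes in CPM per kb of its longest transcript, by cluster (rows) and paralog group (columns, anterior on the left), in Rb2 libraries (left panel) and PBS libraries (right panel), n = 3 each. Numbers are the means, colour is log2(CPM per kb + 1), and grey cells have no gene or are not shown. Hoxa4, Hoxa5, Hoxc5 and Hoxc6 hold the highest means in both panels, and groups 10 to 13 are at or near 0.

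Within the pattern, paralog groups 4 to 6, the neck and upper trunk genes, held most of the signal. Levels of different genes were compared as CPM per kb of the longest annotated transcript. Groups 4 to 6 made up 72.6, 71.9 and 71.4% of the summed Hox level in Rb2 1, 3 and 4, against 58.1, 57.2 and 71.3% in PBS 1, 2 and 4. The Rb2 libraries were alike and PBS 4 lay just beside them, while PBS 1 and PBS 2 were lower. Groups 7 to 9 held 14.97, 18.4 and 15.2% in Rb2 libraries, against 33.1, 31.9 and 17.2% in PBS libraries, where PBS 4 fell within the Rb2 range. Group 9 alone held 1.34 ± 0.08% in Rb2 libraries and 2.44 ± 0.79% in PBS libraries (SD, n = 3 each). For group 8 these shares were 9.48 ± 1.46% and 17.7 ± 6.94%. Groups 1 to 3 held 11.8 ± 1.96% in Rb2 libraries and 10.4 ± 1.39% in PBS libraries (SD, n = 3 each).

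By cluster, Hoxa held the largest mean share of the level per kb of the longest transcript, 51.3 ± 1.39% in Rb2 libraries and 40.7 ± 6.93% in PBS libraries. Hoxc followed with 27.7 ± 2.41% in Rb2 libraries and 31.8 ± 4.58% in PBS libraries. Hoxb held 13.9 ± 1.14% and Hoxd 7.23 ± 1.22% in Rb2 libraries, against 16.5 ± 1.74% and 10.97 ± 2.07% in PBS libraries. The Hoxa share was above all PBS libraries in each Rb2 library, by a narrow margin over PBS 4 (48.1%). Summed over all 39 genes, the level was 48.6, 56.3 and 56.6 CPM per kb in Rb2 libraries and 40.0, 38.0 and 45.9 CPM per kb in PBS libraries. In PBS 1 the Hoxc share (37.1%) was above that of Hoxa (34.3%). The shares depend on the length used. With the coding length, Hoxa held 42.6 ± 1.1% and Hoxc 32.7 ± 1.9% in Rb2 libraries. In PBS libraries Hoxa held 32.3 ± 5.9% and Hoxc 37.1 ± 4.3%. The mean of Hoxc thus came first there, within the spread of the libraries.

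In the order of mean levels per kb, the first 4 places were held by the same genes in both groups. In Rb2 libraries these were Hoxa5 (11.7 ± 2.01 CPM per kb), Hoxa4 (8.46 ± 1.75), Hoxc6 (6.78 ± 1.58) and Hoxc5 (4.30 ± 0.399). In PBS libraries they were Hoxa4 (5.90 ± 2.26), Hoxa5 (5.42 ± 1.63), Hoxc6 (4.36 ± 0.822) and Hoxc5 (3.65 ± 0.871). Hoxa5 is known for its role in lung and neck development, and Hoxa4, Hoxc5 and Hoxc6 pattern the cervical and thoracic vertebrae. In Rb2 libraries Hoxc6 and Hoxc5 lay apart, and so did Hoxc5 and Hoxa3, the fifth gene. Hoxa5 overlapped Hoxa4, and Hoxa4 overlapped Hoxc6. This order depends on the library in the PBS group: Hoxc8 was first in PBS 1 (4.89 CPM per kb, against 4.55 for Hoxa4), and without PBS 4 it came behind Hoxa4 and Hoxa5 alone (4.18 CPM per kb), with Hoxc5 outside the first 4. In PBS libraries neighbours among the first 10 places overlapped. The lowest tested genes were Hoxd3 (0.0575 CPM per kb) and Hoxb9 (0.168 CPM per kb) in Rb2 libraries, and Hoxa9 (0.0740 CPM per kb) and Hoxd3 (0.103 CPM per kb) in PBS libraries.

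Between the groups, 3 of the 24 tested genes passed the test, and all 3 were higher in Rb2 libraries. They were Hoxa3, Hoxa5 and Hoxa9, all of the Hoxa cluster on chromosome 6. The share of 12.5% lies near the 10.4% of all 16707 tested genes that passed (5.33% higher and 5.11% lower), so the count of 3 does not set the Hox genes apart. The libraries of both groups did not overlap for 7 of the 24 genes, 5 with Rb2 above and 2 with Rb2 below, or 29.2%, against 35.8% of all tested genes (18.2% above and 17.6% below). The median log2 fold change, Rb2 over PBS, was 0.15 over the tested Hox genes and -0.01 over all tested genes. It was 0.66 for the 8 Hoxa genes, 0.17 for the 8 Hoxb genes, 0.22 for the 4 Hoxc genes and -0.58 for the 4 Hoxd genes. With the muscle marker level as a covariate, the median was 0.07 over all tested Hox genes. For Hoxa, Hoxb, Hoxc and Hoxd it was then 0.54, 0.23, 0.07 and -0.47. The medians without the covariate also depend on single libraries. The median over all tested Hox genes was 0.07 without PBS 2 and 0.03 without Rb2 4. Without Rb2 4 the Hoxa median was 0.43, the Hoxb median 0.03, the Hoxc median 0.12 and the Hoxd median -0.85. The Hoxa median was 0.95 without PBS 4. The Hoxb median was 0.10 without PBS 4 and 0.29 without Rb2 1, the Hoxc median 0.05 without PBS 2 and 0.42 without PBS 4, and the Hoxd median -0.38 without PBS 2.

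Along the axis, the median log2 fold change was 0.26 for the 6 tested genes of groups 1 to 3, 0.33 for the 10 of groups 4 to 6 and -0.45 for the 8 of groups 7 to 9. Of the last 8, 6 were below 0 and 2 above, Hoxa9 (1.66) and Hoxb7 (0.10). Leaving out 1 library moved these medians over 0.11 to 0.34, 0.20 to 0.44 and -0.50 to -0.27. The lowest value of groups 1 to 3 came without Rb2 4 (0.14 without PBS 1), that of groups 4 to 6 without PBS 2, and the value of groups 7 to 9 nearest to 0 without Rb2 1. With the muscle marker level as a covariate the medians were 0.23, 0.26 and -0.08, so the value of groups 7 to 9 moved closest to 0. Without both PBS 1 and PBS 2 the medians were 0.21, -0.01 and 0.04, and the posterior groups no longer lay below the middle ones.

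**Figure D2:**
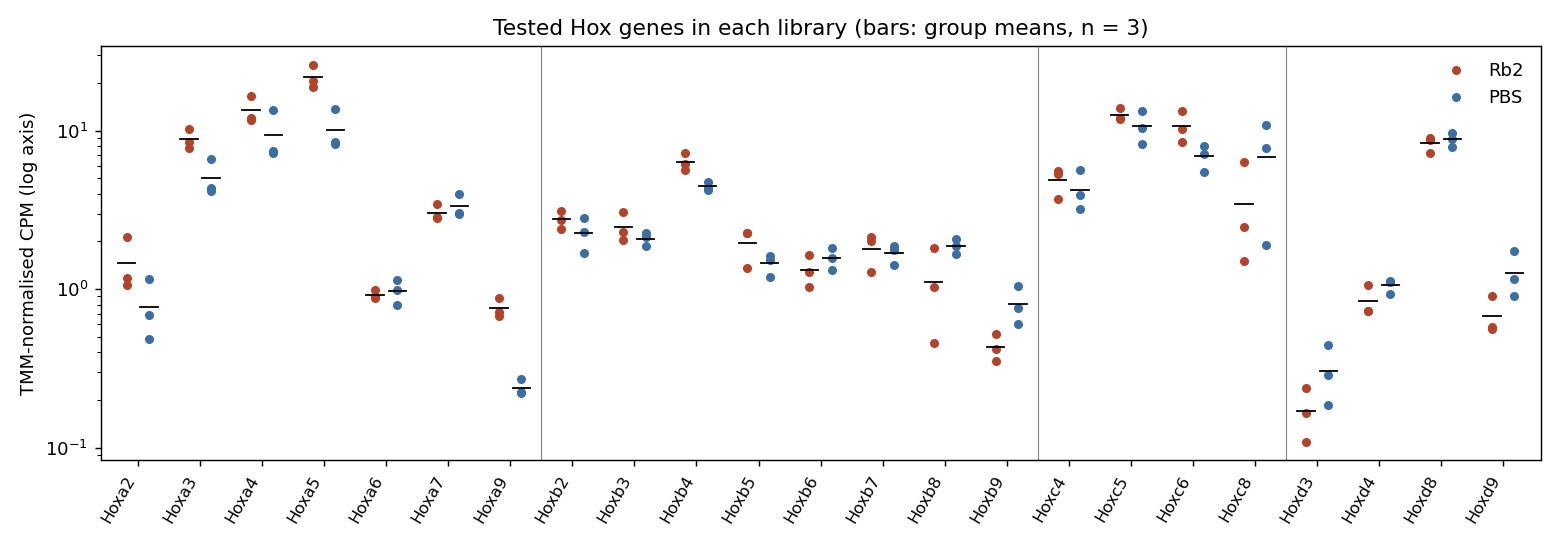
TMM-normalised CPM (log axis) of the tested Hox genes (1 not shown) in each library, Rb2 (red, left of each pair) and PBS (blue, right), with group means as bars. Hoxa3, Hoxa5 and Hoxa9 lie higher in all 3 Rb2 libraries than in any PBS library, and Hoxc8 spreads over the widest range.

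Hoxa5 changed by the largest amount in absolute level. It lies at chr6:52201754-52204587 (GRCm38, minus strand). It had 20.6, 26.1 and 18.9 CPM in Rb2 libraries, against 8.31, 8.51 and 13.7 CPM in PBS libraries. Every Rb2 library was above every PBS library, and PBS 4 was the highest of the PBS libraries. The log2 fold change was 1.10 ± 0.22 (SE), with an adjusted p of 0.0192 (edgeR quasi-likelihood test, Benjamini-Hochberg over all tested genes).

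Hoxa9, a posterior gene of the trunk that is also active in blood progenitors, had the largest fold change of the family. It lies at chr6:52223097-52227370 (minus strand). It had 0.673, 0.885 and 0.713 CPM in Rb2 libraries, against 0.222, 0.269 and 0.225 CPM in PBS libraries, from 57, 73 and 66 counts in Rb2 libraries and 18, 26 and 22 counts in PBS libraries. The groups did not overlap, and the 3 PBS libraries lay close together. The log2 fold change was 1.66 ± 0.33 (adjusted p = 0.0187, edgeR).

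Hoxa3, a gene of neck, thymus and parathyroid development, lies at chr6:52169059-52213067 (minus strand), a span that reaches across Hoxa4, Hoxa5 and Hoxa6. It had 8.56, 7.78 and 10.3 CPM in Rb2 libraries, against 4.18, 4.34 and 6.68 CPM in PBS libraries. The groups did not overlap, and PBS 4 was again the closest to the Rb2 libraries. The log2 fold change was 0.81 ± 0.21 (adjusted p = 0.0416, edgeR). Its exons share bases with 5 other annotated genes, at most 8.36% of its exonic length with any 1 of them.

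The 3 calls rest on PBS 1, PBS 2, Rb2 1 and Rb2 3 together. When any 1 of these was left out, no Hox gene passed by edgeR (6, 5, 6 and 7 genes at an unadjusted p under 0.05, in that order), with adjusted p for Hoxa5 of 0.0802, 0.0718, 0.0693 and 0.0608, for Hoxa9 of 0.0677, 0.0658, 0.0503 and 0.0673, and for Hoxa3 of 0.133, 0.145, 0.111 and 0.0773. The log2 fold changes in these fits stayed between 0.96 and 1.15 for Hoxa5, 1.53 and 1.75 for Hoxa9, and 0.69 and 0.89 for Hoxa3. Without Rb2 4, Hoxa3 did not pass (adjusted p = 0.0819), and without PBS 4, 4 Hox genes passed. Without both PBS 1 and PBS 2, the libraries with the most muscle transcripts, none of the 3 passed, and the log2 fold changes were 0.68, 1.75 and 0.41 for Hoxa5, Hoxa9 and Hoxa3. That fit, chosen after seeing the data, leaves 1 PBS library, which is assumed to vary like the Rb2 libraries. With the muscle marker level as a covariate, Hoxa5 and Hoxa9 passed (adjusted p = 0.0253 and 0.0355) and Hoxa3 did not (adjusted p = 0.0748).

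The 250 bases before the RefSeq starts of Hoxa5, Hoxa9 and Hoxa10 are shown because the first 2 are the genes with the largest rises and the third is the neighbour without a count across the boundary. They lie on the minus strand of GRCm38.p6, at chr6:52204588-52204837 for Hoxa5, at chr6:52227371-52227620 for Hoxa9 and at chr6:52234940-52235189 for the start of Hoxa10 nearest to Hoxa9, and capitals mark CG pairs, the sites of DNA methylation.
Hoxa5: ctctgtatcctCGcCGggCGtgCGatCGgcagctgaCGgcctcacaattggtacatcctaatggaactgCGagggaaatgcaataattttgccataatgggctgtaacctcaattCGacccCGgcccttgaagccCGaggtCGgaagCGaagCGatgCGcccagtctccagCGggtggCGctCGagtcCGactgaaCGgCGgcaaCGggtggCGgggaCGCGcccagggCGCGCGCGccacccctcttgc
Hoxa9: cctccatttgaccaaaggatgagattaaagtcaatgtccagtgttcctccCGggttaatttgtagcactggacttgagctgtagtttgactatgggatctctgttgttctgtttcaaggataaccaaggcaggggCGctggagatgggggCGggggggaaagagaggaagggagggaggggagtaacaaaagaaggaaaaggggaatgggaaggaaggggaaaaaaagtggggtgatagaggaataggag
Hoxa10: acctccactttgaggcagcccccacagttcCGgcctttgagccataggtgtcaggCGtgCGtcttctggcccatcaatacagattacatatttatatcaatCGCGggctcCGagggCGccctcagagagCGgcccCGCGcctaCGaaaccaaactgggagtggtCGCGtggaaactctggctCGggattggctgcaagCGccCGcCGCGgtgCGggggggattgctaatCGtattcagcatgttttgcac

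The Hoxa5 window held 28 CG pairs, that of Hoxa9 held 3 and that of Hoxa10 held 20. A second start of Hoxa10, farther from Hoxa9, had 7. RefSeq promoters were matched by symbol for 22 of the 39 Hox genes (24 promoters), with a median of 12.5 CG pairs, against 6 over 32851 promoters of the table. The 10 promoters of genes without a count had a median of 16.5 and the 13 promoters of tested genes a median of 12. CG-rich and CG-poor promoters stood on both sides of the boundary. In the same windows, searched on both strands with 4 sequences of which none contains another, the Hox-Pbx sequence TGATTNAT was in 2 of the 24 Hox promoters (2.82% of all promoters), the Meis or Pknox sequence TGACAG in 2 (15.9%), the E-box CACGTG in 4 (6.02%) and the TATA box TATAAA in 4 (12.4%).

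**Figure D3:**
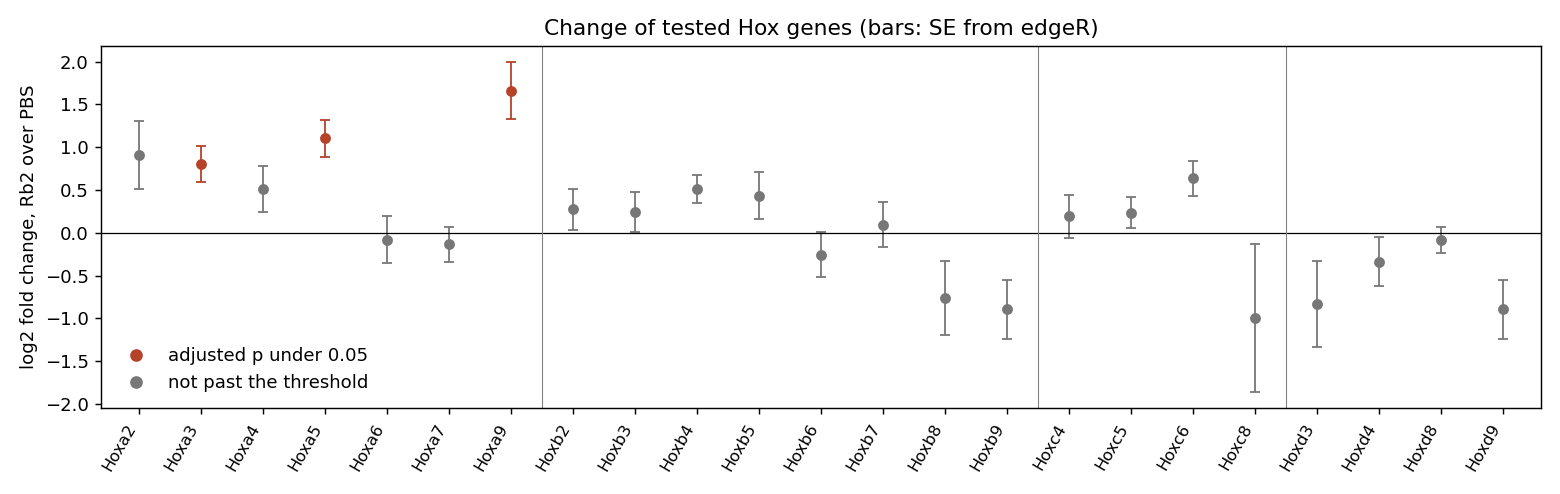
Log2 fold change, Rb2 over PBS, of the tested Hox genes (1 not shown) with SE from edgeR, in cluster and paralog order, with vertical lines between clusters. Red points passed at an adjusted p under 0.05 (Hoxa3, Hoxa5, Hoxa9). The 4 Hoxd points lie below 0 in this fit, that of Hoxd8 within its SE of 0.

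The other Hoxa genes described here did not pass the test. Hoxa4 had 12.1, 11.7 and 16.7 CPM in Rb2 libraries, against 7.25, 7.42 and 13.6 CPM in PBS libraries. PBS 4 lay within the Rb2 range, so the groups overlapped (log2 fold change 0.52 ± 0.27, adjusted p = 0.235). Without PBS 4, Hoxa4 passed, with a log2 fold change of 0.86 and an adjusted p of 0.0330. Hoxa2, the selector gene of the second pharyngeal arch, had 1.18, 1.07 and 2.14 CPM in Rb2 libraries, against 0.481, 0.683 and 1.17 CPM in PBS libraries. Only PBS 4 reached into the Rb2 range (0.91 ± 0.40, adjusted p = 0.160). Hoxa7, a trunk gene, had 2.83, 3.44 and 2.86 CPM in Rb2 libraries, against 2.97, 4.01 and 3.04 CPM in PBS libraries, and the groups overlapped (-0.13 ± 0.21). Hoxa6, a thoracic gene, ranged from 0.874 to 0.983 CPM in Rb2 libraries, against 0.789 to 1.14 CPM in PBS libraries. On the opposite strand, Hoxa7 shares 20.4% of its exonic length with Hoxaas3, and Hoxa4 shares 16% with Gm29430.

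In the Hoxb cluster, on chromosome 11, no gene passed and 8 were tested. Hoxb4, used to expand blood stem cells, had 6.20, 5.67 and 7.24 CPM in Rb2 libraries, against 4.35, 4.25 and 4.75 CPM in PBS libraries. The groups did not overlap, but the adjusted p of 0.0738 missed the threshold (log2 fold change 0.52 ± 0.17). It passed when the fit carried a term for GC content and transcript length (adjusted p = 0.0341) and by the DESeq2 Wald test (0.0293). Hoxb9, which with its group 9 paralogs acts in mammary development, had 0.354, 0.521 and 0.421 CPM in Rb2 libraries, against 1.05, 0.765 and 0.603 CPM in PBS libraries. Here the Rb2 libraries were the lower ones without overlap (-0.89 ± 0.34, adjusted p = 0.117).

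The remaining Hoxb genes overlapped between groups. Hoxb2, a hindbrain gene, had 2.73, 2.41 and 3.13 CPM in Rb2 libraries, against 1.70, 2.30 and 2.83 CPM in PBS libraries. Hoxb3, also of hindbrain and neck, had 2.03, 2.29 and 3.07 CPM in Rb2 libraries, against 1.86, 2.25 and 2.14 CPM in PBS libraries. Both share exonic bases with Hoxb3os on the opposite strand (27.3% of the exonic length of Hoxb2 and 52.9% of that of Hoxb3), and since the strand setting of the counting is not given, their reads cannot be told apart there. Hoxb5, known from enteric neural crest, had 1.36, 2.25 and 2.27 CPM in Rb2 libraries, against 1.63, 1.20 and 1.53 CPM in PBS libraries. Hoxb6 had 1.04, 1.28 and 1.63 CPM in Rb2 libraries, against 1.58, 1.81 and 1.33 CPM in PBS libraries. Hoxb7 had 1.29, 2.12 and 2.01 CPM in Rb2 libraries, against 1.76, 1.88 and 1.42 CPM in PBS libraries. These 2 trunk genes showed no separation, with log2 fold changes of -0.25 ± 0.27 for Hoxb6 and 0.10 ± 0.27 for Hoxb7. Hoxb8, whose loss in mice causes excessive grooming, had 0.460, 1.83 and 1.03 CPM in Rb2 libraries, against 2.08, 1.67 and 1.88 CPM in PBS libraries. Rb2 1 was the lowest of the 6 and Rb2 3 lay within the PBS range (-0.76 ± 0.43, adjusted p = 0.266). The log2 fold change was -0.39 without Rb2 1 and -1.33 without Rb2 3.

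In the Hoxc cluster, on chromosome 15, none of 4 tested genes passed. Hoxc6 had 8.51, 13.4 and 10.2 CPM in Rb2 libraries, against 7.10, 5.50 and 8.07 CPM in PBS libraries. The groups did not overlap, with Rb2 3 the highest, and the adjusted p was 0.0748 (log2 fold change 0.64 ± 0.20). The DESeq2 Wald test gave 0.0280. Hoxc5 had 11.97, 11.8 and 13.9 CPM in Rb2 libraries, against 10.4, 8.23 and 13.3 CPM in PBS libraries, and Hoxc4 had 5.37, 3.70 and 5.54 CPM in Rb2 libraries, against 3.95, 3.21 and 5.62 CPM in PBS libraries. PBS 4 was the highest PBS library for both and lay among or above the Rb2 libraries (0.24 ± 0.18 for Hoxc5 and 0.19 ± 0.25 for Hoxc4).

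Hoxc8 varied more between libraries than any other tested Hox gene, with a coefficient of variation of 74.0% over the 6 libraries and a 7.25-fold range. It had 1.50, 6.33 and 2.45 CPM in Rb2 1, 3 and 4, against 10.9, 7.74 and 1.89 CPM in PBS 1, 2 and 4. The high libraries were PBS 1, PBS 2 and Rb2 3, and the groups overlapped (log2 fold change -0.995 ± 0.86, adjusted p = 0.492). These are also the 3 libraries with the most skeletal muscle transcripts. The 7 white adipocyte markers, Hoxc8 not among them, made up 0.00584, 0.00866 and 0.00888% of counts in Rb2 1, 3 and 4, against 0.0325, 0.0184 and 0.00628% in PBS 1, 2 and 4. None of the 14 muscle and none of the 7 white adipocyte markers passed the test. With the muscle marker level as a covariate the log2 fold change of Hoxc8 was -0.09 ± 0.42, and without PBS 1 and PBS 2 it was 0.86 ± 0.89. The part of muscle or white fat in the level of Hoxc8 was not tested.

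**Figure D4:**
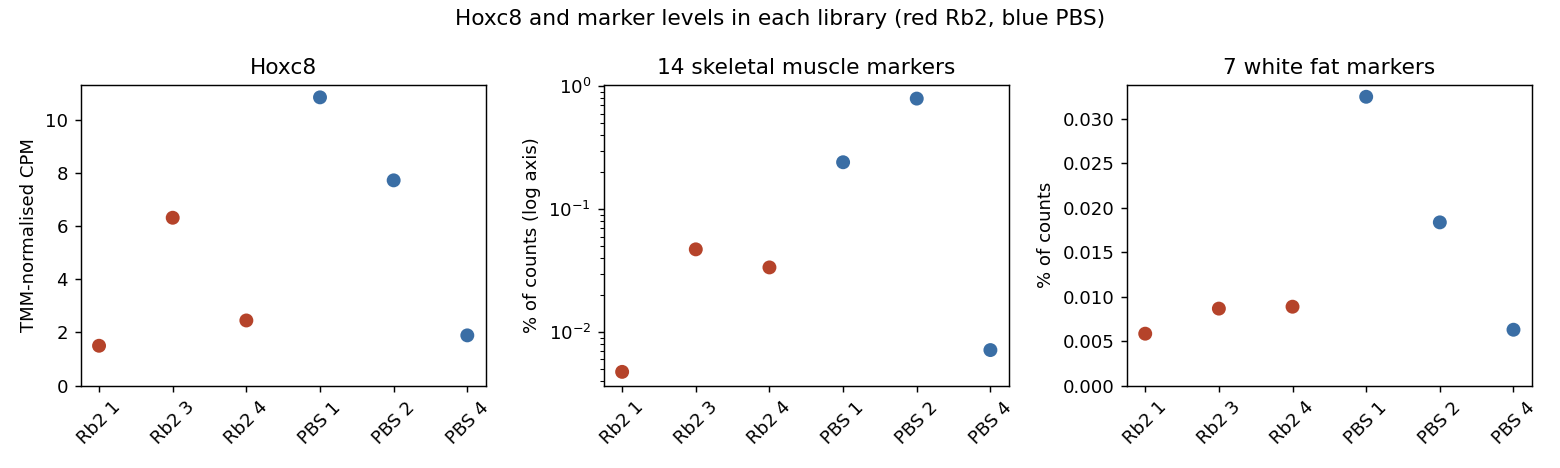
Hoxc8 in TMM-normalised CPM (left panel) and the summed share of counts of 14 skeletal muscle markers (middle, log axis) and 7 white fat markers (right) in each library, Rb2 in red and PBS in blue. PBS 1 and PBS 2 are the 2 highest libraries in all 3 panels, and PBS 4 lies among the Rb2 libraries.

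In the Hoxd cluster, on chromosome 2, none of 4 tested genes passed, and all 4 log2 fold changes were below 0, or 3 of 4, with Hoxd8 above 0, with the GC and length offset, without Rb2 3, with the replicate block and without PBS 1 and PBS 2. Hoxd9, active in limb and lumbar patterning, had 0.578, 0.557 and 0.908 CPM in Rb2 libraries, against 1.16, 1.74 and 0.910 CPM in PBS libraries. Rb2 4 and PBS 4 were nearly equal, so the separation of the groups was narrow (-0.89 ± 0.34, adjusted p = 0.118). Hoxd8, a trunk gene and the most abundant of the cluster, had 9.01, 7.22 and 8.72 CPM in Rb2 libraries, against 9.71, 8.86 and 7.94 CPM in PBS libraries. It varied least of all tested Hox genes, with a coefficient of variation of 10.2% and a 1.34-fold range (-0.09 ± 0.15). Hoxd4, a gene of the upper neck vertebrae, had 0.732, 0.727 and 1.06 CPM in Rb2 libraries, against 0.937, 1.13 and 1.11 CPM in PBS libraries, and the groups overlapped (-0.34 ± 0.28). Hoxd3 ranged from 0.109 to 0.238 CPM in Rb2 libraries, against 0.185 to 0.445 CPM in PBS libraries. It shares 9.26% of its exonic length with Hoxd4 and 53.1% with Gm28230, annotated on the same strand. Hoxd4 shares 39.15% of its exonic length with Gm28230, 13.2% with Hoxd3 and, on the opposite strand, 11.8% with Hoxd3os1.

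Some markers of supporting cells were lower in Rb2 libraries, against 5.11% of all tested genes that passed as lower. Of 12 endothelial markers 6 passed, all lower in Rb2 libraries, where they summed to 1026 to 1504 CPM, against 1897 to 2127 CPM in PBS libraries. Of 12 fibroblast and adipose progenitor markers 1 passed, lower, and the sums, which overlapped between Rb2 4 and PBS 4, were 598 to 876 CPM in Rb2 libraries and 874 to 1147 CPM in PBS libraries. Of 10 macrophage markers 4 passed, all lower, with sums of 77.8 to 108 CPM in Rb2 libraries and 118 to 150 CPM in PBS libraries. Of 11 smooth muscle and pericyte markers 2 passed, both lower. The part of these cells in the Hox levels was not tested.

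The Hox clusters also encode microRNAs, small RNAs that pair with messenger RNAs through their seed, bases 2 to 8. The miR-196 family lies in the Hoxa, Hoxb and Hoxc clusters and is known to act on Hox messages in mouse embryos. These poly(A) libraries do not measure mature microRNAs. The mature forms (RefSeq, GRCm38.p6) are miR-196b-5p at chr6:52230129-52230150, minus strand, between Hoxa9 and Hoxa10, and miR-196a-5p at chr11:96265187-96265208 and at chr15:102973365-102973386, plus strand. In the GENCODE annotation, exons of Hoxa9 share 85 bases with Mir196b, the gene of miR-196b-5p, on the same strand. The mature forms share 1 seed, which is in capitals.
miR-196b-5p: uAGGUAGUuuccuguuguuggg
miR-196a-5p: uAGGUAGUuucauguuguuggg

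The letters that pair with this seed, ACTACCT, occurred in the 3′ UTR of 8 of the 39 Hox genes (20.5%), against 6.10% of 20422 genes, with median 3′ UTR lengths of 966 and 933.5 bases. The 8 were Hoxa4, Hoxa5, Hoxa7, Hoxa9, Hoxb1, Hoxb6, Hoxb7 and Hoxc8, and Hoxa7 had 4 matches. Only exact matches were searched, so sites that pair less than fully with the seed are not counted. For miR-10a-5p and miR-10b-5p, the microRNAs beside Hoxb4 and Hoxd4, the match ACAGGGT occurred in 4 of 39 (10.3%), against 12.3% of genes. Seed matches of the other mature microRNAs of the clusters were searched too. By seed, they occurred in 0 to 10.3% of the 39 Hox genes, against 1.23 to 6.48% of genes. The sites below are those of the called genes Hoxa5 and Hoxa9, at base 456 and base 337 of their 3′ UTRs, and the 2 of Hoxc8, the most variable gene, at bases 135 and 892, with the seed match in capitals.
Hoxa5 site: atatttttattcaaACTACCTa
Hoxa9 site: caaaaggaaagaaaACTACCTt
Hoxc8 site 1: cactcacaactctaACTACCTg
Hoxc8 site 2: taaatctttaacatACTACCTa

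Of these 8 genes, Hoxa5 and Hoxa9 were called higher, Hoxb1 had no count and the other 5 did not pass. Among all tested genes 10.4% passed, 5.33% as higher. The part of miR-196 in these levels was not tested. A match in the letters is not a measured site.

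Related genes were read from lists of Hox partners and regulators, genes flanking the clusters, and other factors of position or depot. Of the 98 tested genes of these lists together, 9 passed, 7 higher and 2 lower in Rb2 libraries. This is 9.18% of them, near the 10.4% of all tested genes. Without PBS 1, PBS 2, Rb2 1 or Rb2 3, 2, 1, 3 and 3 of the 98 passed. None of the 9 tested TALE cofactors passed, the Pbx, Meis and Pknox proteins that bind DNA beside Hox proteins (median log2 fold change -0.20). The smallest adjusted p was 0.0662, for Pknox2, with 0.319, 0.376 and 0.357 CPM in Rb2 libraries, against 0.913, 1.94 and 0.440 CPM in PBS libraries. Pknox1 had 8.02, 8.36 and 7.79 CPM in Rb2 libraries, against 11.3, 10.7 and 9.77 CPM in PBS libraries (adjusted p = 0.0796). For both, every Rb2 library lay below every PBS library, and the PBS libraries of Pknox2 were spread widely.

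Among chromatin regulators, 1 of 28 Polycomb genes, whose complexes keep Hox genes silent, and 1 of 16 Trithorax and H3K27 demethylase genes, which act against that silencing, passed. Pcgf5, a Polycomb ring finger protein, had 23.8, 23.2 and 15.3 CPM in Rb2 libraries, against 13.1, 12.97 and 11.4 CPM in PBS libraries (log2 fold change 0.73 ± 0.18, adjusted p = 0.0328). Kmt2c, an H3K4 methyltransferase, had 46.7, 36.6 and 40.4 CPM in Rb2 libraries, against 25.7, 26.9 and 27.8 CPM in PBS libraries (0.62 ± 0.13, adjusted p = 0.0203). Both were higher in every Rb2 library than in any PBS library. The medians over the lists were 0.13 and 0.08.

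Retinoic acid is the signal that opens anterior Hox genes in the embryo. Of 13 tested genes of its supply and receptors 2 passed, 1 in each direction (median log2 fold change -0.40). Rdh10, which makes retinaldehyde for retinoic acid synthesis, had 10.4, 11.8 and 12.2 CPM in Rb2 libraries, against 6.80, 5.17 and 6.36 CPM in PBS libraries (0.91 ± 0.15, adjusted p = 0.0110). Dhrs3, which turns retinaldehyde back to retinol, had 72.1, 64.1 and 70.7 CPM in Rb2 libraries, against 109, 90.9 and 125 CPM in PBS libraries (-0.65 ± 0.15, adjusted p = 0.0267). Neither gene's groups overlapped.

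Genes flanking the clusters gave 2 of 15, both higher (median log2 fold change 0.21). Mtx2, a mitochondrial import protein beside the Hoxd cluster, had 93.9, 106 and 87.5 CPM in Rb2 libraries, against 53.1, 44.0 and 61.6 CPM in PBS libraries (0.86 ± 0.15, adjusted p = 0.0128). Hibadh, a mitochondrial enzyme of valine breakdown near the Hoxa cluster, had 470, 478 and 431 CPM in Rb2 libraries, against 267, 250 and 330 CPM in PBS libraries (0.70 ± 0.15, adjusted p = 0.0242). The Rb2 libraries were the higher ones for both, without overlap.

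Other factors that mark position or depot gave 3 of 17, 2 higher and 1 lower (median log2 fold change -0.13). Zic1, the brown fat marker, had 6.99, 4.18 and 3.65 CPM in Rb2 libraries, against 2.48, 1.63 and 2.72 CPM in PBS libraries (1.12 ± 0.29, adjusted p = 0.0430). Lhx8 had 3.78, 2.06 and 2.25 CPM in Rb2 libraries, against 1.31, 0.589 and 1.03 CPM in PBS libraries (1.47 ± 0.35, adjusted p = 0.0321). Both were higher in every Rb2 library, with Rb2 1 the highest. Irx3, a homeobox gene linked to fat browning, had 2.22, 2.69 and 2.60 CPM in Rb2 libraries, against 3.19, 5.11 and 5.67 CPM in PBS libraries (-0.90 ± 0.24, adjusted p = 0.0452). Tbx15, a T-box factor of trunk mesenchyme and muscle, had 1.81, 3.32 and 2.50 CPM in Rb2 libraries, against 7.71, 14.003 and 1.99 CPM in PBS libraries. Like Hoxc8 and the muscle markers, it was highest in PBS 1 and PBS 2 and did not pass (-1.64 ± 0.74, adjusted p = 0.214).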

How the data were processed

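Brown adipose tissue RNA of 3 Rb2 and 3 PBS mice was extracted with an RNeasy kit and sequenced as TruSeq Stranded mRNA libraries (1.5 µg total RNA each), per the labels' protocols. The authors deposited raw read counts per gene, whole numbers for 45777 genes, which were used as deposited. Trimmomatic, HISAT2, Bowtie2, StringTie and mm10 are named per the submitters' processing notes; of the counting program and its strand setting the sources used here say nothing. The numbers in the column names are not the replicate numbers of the sample titles, and no label says whether they pair libraries. Nothing says more of the replicates than that they were 3 mice per condition. Positions and promoters came from RefSeq (GRCm38.p6), and transcript lengths, exon overlaps and 3′ UTRs (of each gene's longest coding transcript) from GENCODE vM21.

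Genes passing edgeR's filter (count minimum 10, total 15) were fitted by edgeR's quasi-likelihood test (edgeR 4.0.16, R 4.3.3) with TMM scaling, and p-values were adjusted by Benjamini-Hochberg over all 16707 tested genes at 0.05. The procedure was tested on simulated counts, drawn independently for each gene. Such counts hold no variation shared between genes, like that of the muscle markers. A standard error is the log2 fold change over the square root of F. Levels are TMM-normalised CPM, divided by the longest transcript in kb where genes are compared, with SD over 3 libraries. Alternatives were DESeq2 1.42.0, limma-voom (limma 3.58.1), other scalings, filters, lengths and covariates, and left-out libraries. Values of every library are given for Hox genes that passed or averaged at least 1 CPM in either group, others by range. From each related list the called genes with the smallest p are named (up to 4, or 2 where none passed), and Zic1 and Tbx15 always. Values of 1 tested Hox gene are not reported here. The Hox genes and lists were chosen with earlier results of these data known.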

Additional observations from a re-analysis of the deposited data

How the results depend on the processing

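The 24 tested Hox genes kept their call or lack of one under all 17 alternatives each, except Hoxa3 (lost in 10), Hoxa5 and Hoxa9 (lost in 6 each), Hoxb4 (gained in 3), Hoxc6 (gained in 2) and Hoxa4 (gained in 1); Hoxd3 was tested in 16. No called gene changed direction. The count of 3 Hox genes was 5 by the DESeq2 Wald test and at an adjusted p under 0.1, and 0 to 4 when 1 library was left out. With the column numbers 1 and 4 as a replicate block it was 0 (6 at an unadjusted p under 0.05), and without PBS 1 and PBS 2 it was 0 (2 unadjusted); both were chosen after seeing the data. Over all genes, 1743 calls became 3309 by the Wald test, 3392 at 0.1, 831 with the muscle covariate, 303 to 2269 with 1 library left out, 96 with the block, and 0 of 17776 without PBS 1 and PBS 2 (2063 unadjusted). The 9 related-list calls became 20 (Wald), 5 (voom), 17 (0.1), 4 (muscle covariate), 5 (GC and length offset), 1 to 11 (1 library left out), 1 (block) and 0 (without PBS 1 and PBS 2). In the block fit, PBS 2 and Rb2 3 share no number with a library of the other group. Only the numbers 1 and 4 carried that contrast, and few libraries were left to estimate the spread. The cause of the shifts in all these counts was not tested. The Hoxa share in Rb2 libraries was 42.6% by coding length, 45.1% by mean transcript length, 49.5% by the RefSeq-matched transcript and 46.2% undivided, with 32.3% by coding length in PBS libraries. The share of groups 4 to 6 in Rb2 libraries was 67.0% by mean length, 70.9% by the RefSeq-matched transcript and 67.4% undivided. With 1 library left out, the Hoxa share was 50.5 to 51.9% in Rb2 libraries and 37.0 to 43.9% in PBS libraries, and that of groups 4 to 6 was 71.7 to 72.3% in Rb2 libraries and 57.7 to 64.7% in PBS libraries. The planned block on the title numbers was not run, because the columns do not carry them. Library size alone moved the Hoxa3 adjusted p to 0.0944, and voom to 0.0570.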

Other observations

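The spans of the 4 clusters hold 32 other rows of the table, mostly long non-coding RNAs, which were looked at after the data had been seen. Of these, 13 had no count in any library, among them Hotair, which lies beside Hoxc11 and is known from posterior tissues, and 10 were abundant enough to test. None of the 10 passed, and all 10 had a log2 fold change below 0, as did 8524 of all 16707 tested genes. Hotairm1, a long non-coding RNA of the Hoxa cluster, had 2.55, 4.51 and 5.13 CPM in Rb2 libraries, against 4.90, 7.44 and 9.50 CPM in PBS libraries, with only Rb2 4 reaching into the PBS range (-0.84 ± 0.31, adjusted p = 0.116). Mira, which lies between Hoxa6 and Hoxa7, had 2.93, 6.16 and 4.25 CPM in Rb2 libraries, against 7.65, 8.25 and 5.01 CPM in PBS libraries (-0.65 ± 0.29, adjusted p = 0.172), with Rb2 3 above PBS 4. The called Hoxa3, Hoxa5 and Hoxa9 stood higher in Rb2 libraries in the same cluster. Hoxb3os, across Hoxb3, had 1.16 ± 0.125 CPM in Rb2 libraries and 1.42 ± 0.244 CPM in PBS libraries (SD, n = 3 each).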
